A study of Homo sapiens with 9 samples.

Results

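The miRNA repertoire of HMC-1 cells was read from the 3 arrays that carried RNA of the cells themselves, out of 9 samples in the series. HMC-1 is an established line grown from a human mast cell leukaemia. The other 6 samples, 3 labelled HD and 3 labelled LD, were not analysed here. Members were the miRNA probes marked OK on each of the 3 cell arrays, which were 2017 of the 2019 miRNA probes printed, and 15 of the printed probes stand for several miRNAs with one spot. The probes for miR-4749-3p and miR-4787-3p carried another mark on the array of culture 2.

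The cells were grown at body temperature in humidified air enriched in CO2, with no treatment and no genetic change named in the labels. Total RNA was taken with a column kit whose lysis buffer held 2-mercaptoethanol, labelled with the dye Hy5, and each of the 3 samples, called culture 1, culture 2 and culture 3 below, was read on an array of its own. Differences between cultures and differences between arrays therefore cannot be told apart. RNA of many cells was pooled on each array, so fewer cells with a miRNA and less of it per cell cannot be told apart either.

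A miRNA is a short RNA, cut from a hairpin precursor, that guides Argonaute proteins to messenger RNAs and lowers their output. The choice of targets rests mainly on the seed, a short stretch near the 5′ end, so miRNAs that share a seed are grouped as a family, while hairpins that lie side by side in the genome are often transcribed together as a cluster. Mast cells are tissue cells of the blood lineage that release histamine and other mediators when their IgE receptors are crosslinked, and they depend on the growth factor receptor KIT. In mast cells and their blood relatives miR-223, miR-142, miR-146 and the pair miR-221 and miR-222 are well known, the last as repressors of KIT.

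The sequences below are RefSeq mature miRNAs of build GRCh38.p14, written 5′ to 3′ with the seed, bases 2 to 8, in capitals. Names matched the RefSeq table exactly for 1686 of the 2017 members (83.6%). The first set is shown because its members share a seed, were all detected, and differ from each other by only a few bases.
let-7a-5p: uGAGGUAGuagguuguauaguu
let-7f-5p: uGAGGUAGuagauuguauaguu
let-7d-5p: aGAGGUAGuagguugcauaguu
let-7e-5p: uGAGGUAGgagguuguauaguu
miR-98-5p: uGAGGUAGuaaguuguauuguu

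The miR-17 seed family and the miR-15/16 family are shown because these growth-related families were also complete on the arrays. The miR-17 members come from 3 different clusters.
miR-17-5p: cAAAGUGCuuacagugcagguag
miR-106a-5p: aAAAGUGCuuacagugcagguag
miR-20a-5p: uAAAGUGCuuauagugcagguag
miR-20b-5p: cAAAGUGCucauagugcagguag
miR-93-5p: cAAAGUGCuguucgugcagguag
miR-16-5p: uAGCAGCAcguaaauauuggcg
miR-15b-5p: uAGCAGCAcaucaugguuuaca
miR-195-5p: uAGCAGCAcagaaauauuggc
miR-497-5p: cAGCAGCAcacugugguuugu

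The next set holds bright members of the list of mast cell and blood miRNAs, and miR-155-5p, which was detected on no array.
miR-146b-5p: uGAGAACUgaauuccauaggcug
miR-146a-5p: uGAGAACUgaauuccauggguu
miR-223-3p: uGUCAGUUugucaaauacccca
miR-21-5p: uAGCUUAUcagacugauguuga
miR-142-5p: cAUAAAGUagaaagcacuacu
miR-142-3p: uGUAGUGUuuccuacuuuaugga
miR-221-3p: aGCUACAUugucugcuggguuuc
miR-222-3p: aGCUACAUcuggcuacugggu
miR-155-5p: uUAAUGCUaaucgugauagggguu

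The following entries are shown because their probes were the brightest or among the brightest on the arrays and have been said to match fragments of other small RNAs.
miR-4454: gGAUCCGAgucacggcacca
miR-1260b: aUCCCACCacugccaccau
miR-1260a: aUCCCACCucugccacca
miR-4284: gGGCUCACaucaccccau
miR-5100: uUCAGAUCccagcggugccucu

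Close relatives that were not detected alike complete the printed sequences, with miR-99b-5p, miR-100-5p and miR-125a-5p on all arrays, miR-125b-5p on 1 array and miR-99a-5p on none.
miR-99b-5p: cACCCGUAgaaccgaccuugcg
miR-99a-5p: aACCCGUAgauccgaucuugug
miR-100-5p: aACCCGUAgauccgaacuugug
miR-125a-5p: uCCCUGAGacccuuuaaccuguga
miR-125b-5p: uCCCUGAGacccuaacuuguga

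Of the 2017 probes, 277 (13.7%) were detected on all 3 cell arrays and 1260 (62.5%) on none. A further 104 (5.16%) were detected on 2 arrays and 376 (18.6%) on 1. A probe counts as detected where the deposited file gives a globally normalized signal, which the authors left empty unless the raw signal passed the mean of the trimmed blank spots by about 2 SD. On single arrays, 470 probes were detected in culture 1, 506 in culture 2 and 440 in culture 3. The weakest signals given were 11.0, 10.2 and 9.60 normalized units, on a scale where the median detected probe of each array is 25. The normalized scale hides unequal raw scales, since the values had been multiplied by 1.53 in culture 1, 2.59 in culture 2 and 2.79 in culture 3 after 112, 79.6 and 71.7 raw units had been subtracted as background.

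The 1031 spots marked blank on each array gave the background of this call. Of them, 63, 74 and 69 passed the limit in cultures 1, 2 and 3. No blank spot passed on all 3 arrays, 17 (1.65%) passed on 2 and 172 (16.7%) on 1. The limit was set from these same spots, so how few of them passed is no independent gauge of false detection. Detection on all 3 arrays had no counterpart among them, while the share of miRNA probes detected on exactly 1 array was near that of blank spots. Of 24 negative control spots, 1 passed on 1 array and 0 on 2 or 3. The probes seen on 1 array were dim, with a median of 12.7 normalized units, and 97.1% of them lay under 25. Those seen on 2 arrays had a median of 15.1. A probe that was not detected may still have been present below the limit.

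**Figure D1:**
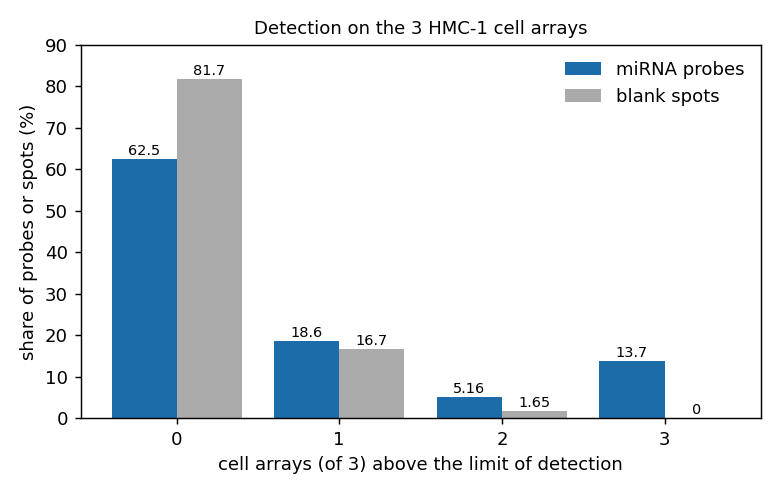
Share of the 2017 miRNA probes and of the 1031 blank spots (vertical axis, %) that were above the limit of detection on 0, 1, 2 or 3 of the cell arrays (horizontal axis). Detection on 1 array was near equal in both (18.6% and 16.7%), while 13.7% of the miRNA probes and 0% of the blank spots were detected on all 3. The limit was itself set from the blank spots.

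The share detected differed along the numbering of the registry, in which older and better studied miRNAs have low numbers. Among probes numbered below 200 in their names, 94 of 254 (37.0%) were detected on all 3 arrays. The share was 5.38% (20 of 372) among those numbered from 500 to below 1000, and 10.0% (117 of 1166) for all numbers from 1000 upward. Median signals of those detected were 82.5 units for numbers below 1000 and 54.8 for the rest. The detected probes of higher number were also rich in G and C, with a median of 72.1% in the mature sequence against 47.5% for the lower numbers. Of the matched members with more than 70% G and C, 59 were among the 230 detected on all 3 (25.7%) and 42 among the 1055 detected on none (3.98%). The part of probe composition in these detections was not tested.

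Signals of the 277 probes detected on all 3 arrays covered a wide range. Their geometric means over the cultures ran from 11.2 to 69339 units, with a median of 71.0 and quartiles of 30.4 and 212. Above 100 units lay 116 probes, above 500 lay 34 and above 1000 lay 21. Probe sequence as well as target amount sets a signal, so the order of different probes below describes brightness and not abundance.

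One probe stood far above all others. The signal of miR-4454 was 68312 in culture 1, 97819.5 in culture 2 and 49890.2 in culture 3, with a geometric mean of 69339 and an SD of 0.49 on the log2 scale (n = 3). That is 16.6 times the next probe, and it made up 49.2%, 49.2% and 43.2% of the summed normalized signal of the 3 arrays. In every culture it was the brightest probe.

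The next 3 probes also belonged to entries that have been said to match other small RNAs. The signal of miR-1260b was 4502, 5808 and 2813 in cultures 1, 2 and 3. For miR-4286 the values were 4063, 6202 and 2769.6, and for miR-4284 they were 4589.8, 3469 and 2414. All 3 were lowest in culture 3, and only miR-4284 was highest in culture 1.

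Below them came a tight group of well known miRNAs near 2000 units. The signal of miR-16-5p, a repressor of cell cycle genes and of BCL2, was 1525, 3117.5 and 2113 (geometric mean 2158, SD 0.52 on the log2 scale). For miR-146b-5p, which dampens signalling from Toll-like receptors, it was 1362, 3557 and 2058 (2152, SD 0.69). For miR-21-5p, which represses PDCD4, it was 1299, 3408 and 2109.98 (2106, SD 0.70). In each of these 3 miRNAs culture 1 was lowest and culture 2 highest, and their ranges over the cultures overlapped nearly completely, so their order is not resolved. Also in the group were let-7f-5p at 2062 (SD 0.48), miR-17-5p at 2053 (SD 0.33) and miR-1273g-3p at 2105 (SD 0.39).

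The remaining probes of the 20 brightest lay between 1038 and 1949 units. These were miR-5100, miR-20a-5p, miR-223-3p, miR-106a-5p, let-7a-5p, let-7d-5p, miR-20b-5p, miR-191-5p, miR-1260a and miR-19b-3p. Of the 20, 5 belonged to the miR-17 seed family or to its cluster partner miR-19, 3 to let-7, and 6 to the list of suspected pieces of other small RNAs. In 19 of the 20 the signal was highest in culture 2, the exception being miR-4284.

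**Figure D2:**
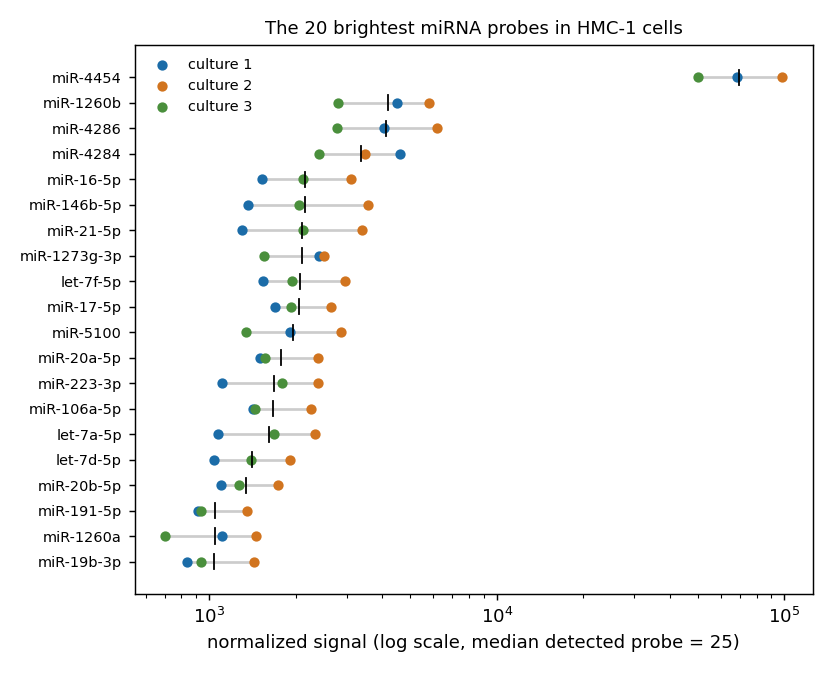
Normalized signal (horizontal log axis, median detected probe of an array = 25) of the 20 brightest miRNA probes, with 1 point per culture, a grey line over their range and a black tick at the geometric mean. miR-4454 lies at 69339, 16.6 times the next probe, and the miRNAs from miR-16-5p to miR-19b-3p lie between 2158 and 1038, with ranges that overlap between neighbours in this order.

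The let-7 family, which represses growth and stemness genes such as LIN28, HMGA2 and RAS in differentiated cells, was detected in full. All 9 of its measured members, miR-98-5p included, were on all 3 arrays. In cultures 1, 2 and 3 the signal of let-7f-5p was 1531, 2959 and 1936, that of let-7a-5p was 1072, 2338 and 1680.3, and that of let-7d-5p was 1038, 1905 and 1394. These 3 overlapped in range over the cultures, but within each culture let-7f-5p was highest and let-7d-5p lowest of the 3. Next came let-7c with a geometric mean of 823 units, and the weakest was miR-98-5p with 75.2 (55.9, 102 and 74.3). Every one of the 9 was highest in culture 2. As printed above, let-7f and let-7e each differ from let-7a by 1 base and let-7d and miR-98 by 2, so probes for one may bind another, and the part of such binding in these signals was not tested.

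**Figure D3:**
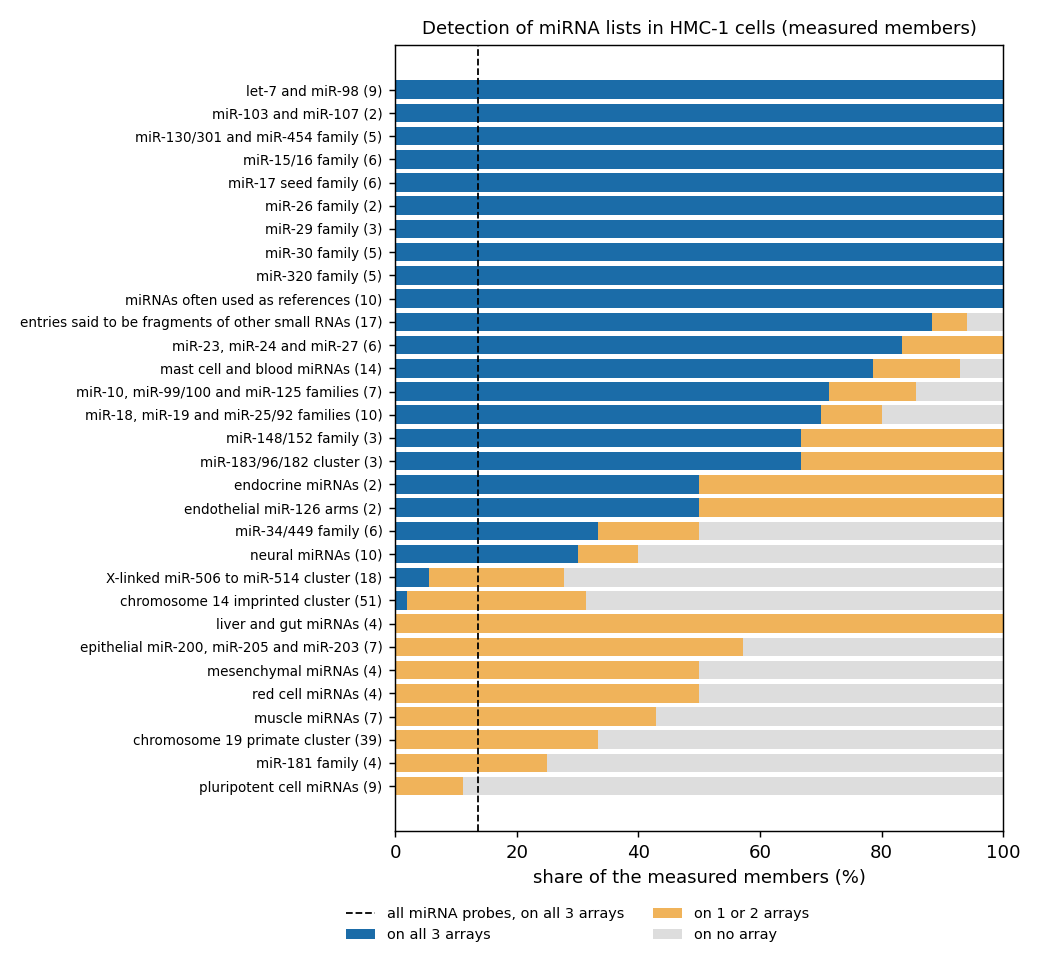
Share of the measured members of each list of miRNAs (horizontal axis, %; number measured in brackets) detected on all 3 cell arrays (blue), on 1 or 2 (orange) and on none (grey). The dashed line marks 13.7%, the share of all miRNA probes on all 3; 10 lists, let-7 and the miR-17 seed family among them, reach 100%, and 8 lists have no member on all 3.

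The miR-17 seed family was likewise complete, with 6 of 6 members on all 3 arrays and a median of 1495 units. This family promotes proliferation and represses BIM and the E2F factors, and its genes are induced by MYC. In cultures 1, 2 and 3 the signal of miR-17-5p was 1696, 2643 and 1929.55, and that of miR-106a-5p, which differs from it by 1 base, was 1423, 2262 and 1437. The signals of miR-20a-5p were 1504.8, 2382 and 1558 and those of miR-20b-5p, which differs by 2 bases, 1099, 1729 and 1270.1. Within each pair the ranges over the cultures overlapped, but miR-17-5p was above miR-106a-5p and miR-20a-5p above miR-20b-5p in every culture. The more distant miR-93-5p reached 641 units and miR-106b-5p 363.

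Read by genome position, these members fell into 3 clusters, taken as hairpins of one strand within 10 kb of each other. In the miR-17 cluster at chr13:91350605-91351391 (plus strand, GRCh38.p14), 8 of 12 measured arms were on all 3 arrays, namely miR-17-5p, miR-17-3p, miR-18a-5p, miR-19a-3p, miR-20a-5p, miR-20a-3p, miR-19b-3p and miR-92a-3p. In its X-linked copy at chrX:134169378-134170278 (minus strand), 5 of 11 were. Of those 5, miR-19b-3p and miR-92a-3p have the same mature sequence in both clusters, and miR-106a-5p, miR-18b-5p and miR-20b-5p lie within 2 bases of a chromosome 13 member. The X-linked member without a near copy, miR-363-3p, was on 2 arrays only, at 14.1 units in culture 1 and 13.7 in culture 3. The cluster of miR-25, miR-93 and miR-106b at chr7:100093560-100094074 had 3 of 6 arms on all 3 arrays.

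Seeds other than that of miR-17 were also represented. Of 10 members of the miR-18, miR-19 and miR-25/92 families, 7 were on all 3 arrays, with miR-19b-3p brightest at 1038 units, then miR-92a-3p at 305, miR-19a-3p at 269.7 and miR-18a-5p at 192. Besides miR-363-3p, the members short of 3 arrays were miR-32-5p and miR-367-3p, both on none.

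All 6 members of the miR-15/16 family were on all 3 arrays, with a median of 547 units. After miR-16-5p came miR-15b-5p at 767 units (651, 995 and 697 in cultures 1, 2 and 3), miR-195-5p at 748 (452, 1095 and 846) and miR-497-5p at 399.8. The weakest was miR-424-5p at 25.2 units (19.97, 43.4 and 18.5). All 6 were highest in culture 2. The mature miR-16-5p and miR-195-5p differ by 3 edits, while miR-497-5p, which neighbours miR-195 on chromosome 17, differs from miR-195-5p by 9.

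Several other broadly expressed families were complete. The miR-29 family, which represses collagens and DNA methyltransferases, had 3 of 3 members on all 3 arrays, led by miR-29c-3p at 424, 1228 and 820 units. The miR-26 family had 2 of 2 (miR-26a-5p at 463 and miR-26b-5p at 425), the miR-103 and miR-107 pair 2 of 2 (818 and 701), the miR-30 family 5 of 5 with a median of 141, the miR-320 family 5 of 5 with a median of 55.0, and the family of miR-130, miR-301 and miR-454 5 of 5 with a median of 55.1, of which 3 remained on all 3 arrays under each of the stricter limits described below. Of the miR-23, miR-24 and miR-27 group, 5 of 6 were on all 3, with miR-23a-3p at 797.5, miR-23b-3p at 704.5 and miR-24-3p at 340, and miR-23c was on 2. All 10 miRNAs often used as references in blood or cell assays were detected, over a range from miR-16-5p at 2158 units down to miR-423-5p at 21.1.

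Grouped by seed alone, without the lists, 40 seeds had 3 or more matched probes. In 4 of these families every member was on all 3 arrays, and in 18 none was. Seed AGCAGCA (miR-15/16) had 6 of 6, seed AAAGCUG (miR-320b, miR-320c, miR-320d and miR-4429) 4 of 4, and seeds AGCACCA (miR-29) and GUAAACA (miR-30a-5p, miR-30c-5p and miR-30e-5p) 3 of 3 each. The let-7 seed GAGGUAG had 8 of 10, and its other members miR-4458 and miR-4500 were on no array. The miR-17 seed AAAGUGC had 6 of 7, lacking miR-526b-3p.

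In the families of miR-10, miR-99/100 and miR-125, which lie in or near HOX genes or beside let-7 genes, detection split between close relatives. On all 3 arrays were 5 of 7 members. In cultures 1, 2 and 3 the signal of miR-10a-5p was 191, 317 and 295, that of miR-10b-5p was 87.5, 302 and 208, and that of miR-125a-5p was 68.3, 93.8 and 103. miR-99b-5p reached 57.3 units as a geometric mean, and miR-100-5p lay just above the limit at 14.2, 14.3 and 11.4. The cluster of miR-99b, let-7e and miR-125a at chr19:51692612-51693339 (plus strand) had 4 of 6 arms on all 3 arrays. By contrast miR-125b-5p, which is encoded on chromosomes 11 and 21 and differs from miR-125a-5p by 3 edits, gave 15.1 units in culture 2 and nothing elsewhere, and miR-99a-5p, 1 base from miR-100-5p, was on no array.

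Of 14 miRNAs known from mast cells and their blood relatives, 11 (78.6%) were on all 3 arrays, with a median of 264 units. The share was 13.7% over all miRNA probes and 18.8% over those numbered below 1000, to which the 14 belong. miR-146b-5p and miR-21-5p led, as given above. The signal of miR-223-3p, a hallmark of the myeloid branch, was 1103, 2393 and 1783 in cultures 1, 2 and 3. All 3 lay above 1000 in every culture.

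Both arms of miR-142, which is largely restricted to blood cells, were detected. The signal of miR-142-5p was 298, 579 and 410 and that of miR-142-3p was 152.4, 409 and 294. The arms overlapped in range over the cultures, but the 5p arm was the brighter in each culture. Both arms were lowest in culture 1. miR-146a-5p, the paralogue of miR-146b-5p with the same seed and 3 edits apart, gave 200, 323 and 179 units. Its highest value lay below the lowest of miR-146b-5p.

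The KIT repressors miR-221-3p and miR-222-3p share a seed and a primary transcript on the X chromosome. miR-221-3p gave 449.2, 498.8 and 274 units and miR-222-3p gave 120, 165 and 65.7. Both were lowest in culture 3, and each value of miR-222-3p lay below each value of miR-221-3p. Weaker members were miR-342-3p at 179 units (SD 0.35 on the log2 scale), miR-196b-5p, a HOXA-linked miRNA, at 40.3 (SD 0.34) and miR-132-3p, which is induced by CREB, at 24.3 (13.1, 45.2 and 24.1).

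The 3 members that were not on all arrays included miR-155-5p, a miRNA of activated lymphocytes, macrophages and mast cells, which was on none. miR-150-5p, typical of mature lymphocytes, gave 16.002 units in culture 1 only, and miR-212-3p, the cluster partner of miR-132, gave 10.6 in culture 2 only. Of the miR-181 family, which is prominent in lymphocytes and blood progenitors, 0 of 4 were on all 3 arrays. miR-181b-5p gave 14.1 units in culture 1, and miR-181a-5p, miR-181c-5p and miR-181d were on none. Over all miRNA probes 13.7% were on all 3 arrays and 62.5% on none. With 4 members, the miR-181 counts are near these shares.

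**Figure D4:**
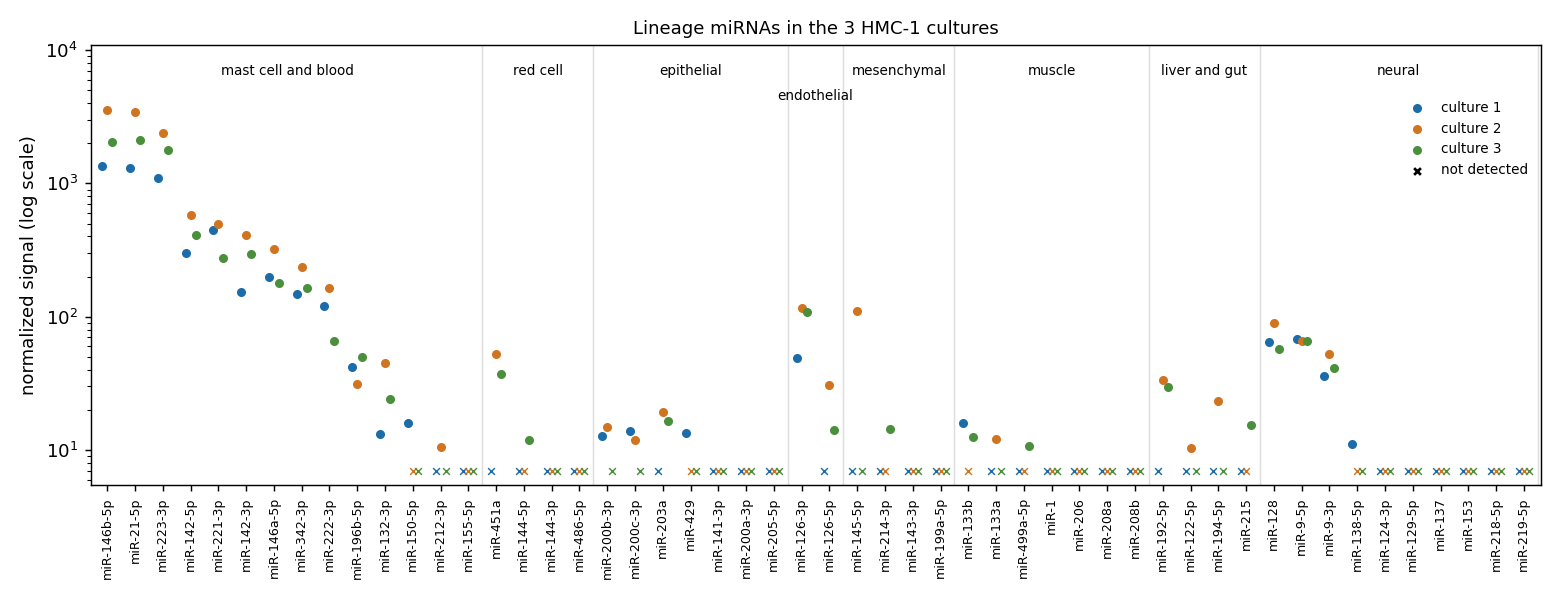
Normalized signal (vertical log axis) of miRNAs listed for blood and for other tissues in the 3 cultures. Crosses at the foot mark cultures where the probe was not detected. The geometric means of the mast cell and blood miRNAs reach 2152 units, those of miR-126-3p and of miR-128, miR-9-5p and miR-9-3p from the neural list lie between 42.8 and 85.8, and the other lists have no member on all 3 arrays.

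Few listed markers of other tissues were on all 3 arrays, as was true of miRNA probes in general (13.7%). Of 4 red cell miRNAs 0 were on all 3 arrays. miR-451a gave 52.4 units in culture 2 and 37.1 in culture 3, miR-144-5p gave 11.9 in culture 3, and miR-144-3p and miR-486-5p were on none. The other arm of miR-486, miR-486-3p, is not in the list and was on all 3, at 11.3, 16.1 and 11.2 units. Of 7 epithelial miRNAs 0 were on all 3, and miR-200b-3p, miR-200c-3p and miR-203a were each on 2 arrays at no more than 19.3 units. miR-429 was on 1 array, and miR-141-3p, miR-200a-3p and miR-205-5p were on none. The share on no array was 50% in the red cell list and 42.9% in the epithelial list, beside 62.5% of all miRNA probes. With so few members, these counts do not set the lists below probes in general.

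The muscle, liver and gut, and mesenchymal lists also had no member on all 3 arrays. Some members of the liver and gut and the mesenchymal lists lay well above the limit on 1 or 2 arrays. The shares on no array were 57.1%, 0% and 50% in the muscle, liver and gut, and mesenchymal lists, beside 62.5% of all miRNA probes. Of 7 muscle miRNAs 0 were on all 3 arrays. miR-133b was on 2, miR-133a and miR-499a-5p were on 1 each at 12.1 and 10.6 units, and miR-1, miR-206, miR-208a and miR-208b were on none. Among 4 liver and gut miRNAs, miR-192-5p gave 33.5 and 29.5 units in cultures 2 and 3, and miR-122-5p, miR-194-5p and miR-215 were on 1 array each. Of 4 mesenchymal miRNAs, miR-214-3p and miR-145-5p were on 1 array each and miR-143-3p and miR-199a-5p on none. The value of miR-145-5p in culture 2, 111 units, was the highest of any probe detected on 1 array, and its cluster partner miR-143-3p was not detected there.

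The neural list held exceptions. Of its 10 members 3 were on all 3 arrays. miR-128 gave 64.4, 90.1 and 57.1 units in cultures 1, 2 and 3. miR-9-5p, a neural miRNA that is also found in some leukaemias, gave 68.1, 65.7 and 66.0, and its other arm miR-9-3p gave 35.7, 52.9 and 41.4. The 3 cultures were closer for miR-9-5p than for any other of the 277 probes (SD 0.03 on the log2 scale). miR-138-5p was on 1 array, and the 6 others of the list, among them the neuronal miR-124-3p, were on none. miR-126-3p, of endothelium and blood progenitors, gave 49.4, 117 and 109 units, while its other arm miR-126-5p was on 2 arrays.

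Of the miR-183, miR-96 and miR-182 cluster, miR-182-5p at 56.0 units and miR-96-5p at 40.2 were on all 3 arrays and miR-183-5p on 1. In the p53-linked family of miR-34 and miR-449, miR-34a-5p reached 136 units and miR-34b-5p 36.5, miR-34c-5p was on 2 arrays, and the miR-449 members a, b and c were on none. The family of miR-148 and miR-152 and the endocrine list split as well. miR-148a-3p at 118 units and miR-148b-3p (23.6, 30.1 and 19.4) were on all 3 and miR-152 on 1, while miR-7-5p reached 91.0 and miR-375 was on 2 arrays. Of 9 miRNAs of pluripotent cells, 0 were on all 3, beside 13.7% of all miRNA probes, and miR-371a-5p was on 1.

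Few members of large clusters that are active in placenta, embryo or germ line were on all 3 arrays. Of 39 measured members of the primate cluster on chromosome 19, 0 were on all 3 arrays, 13 were on 1 and 26 on none, and no signal among the 13 passed 18.8 units. The list holds single-name probes only, and the probe that stands for both miR-516b-3p and miR-516a-3p of this cluster was on all 3 arrays, at 18.8, 15.5 and 15.0 units in cultures 1, 2 and 3. Of 51 listed members of the imprinted cluster on chromosome 14, 1 was on all 3, 2 were on 2, 13 on 1 and 35 on none. The exception was miR-494, at 354, 467 and 263 units in cultures 1, 2 and 3, which was well apart from miR-136-5p and miR-487b, each on 2 arrays at no more than 34.7 units. Arms of this cluster outside the list, miR-376c-3p and miR-1185-2-3p, were also on 2 arrays each, at no more than 24.3 units. A list of 18 X-linked members was drawn from miR-506 to miR-514 and from miR-888 to miR-892, which lie in separate clusters. Of the 18, only miR-513a-5p was on all 3, at 28.3, 19.8 and 12.7 units, and it was not under either stricter limit. The shares on 1 array were 33.3% in the chromosome 19 list and 25.5% in the chromosome 14 list, beside 18.6% of all miRNA probes and 16.7% of blank spots. On all 3 arrays were 0%, 1.96% and 5.56% of the chromosome 19, chromosome 14 and X-linked lists, beside 13.7% of all miRNA probes. The shares on no array, 66.7%, 68.6% and 72.2%, were near the 62.5% of all miRNA probes.

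Over the genome, chromosome 8 left out, 64 clusters of at least 2 hairpins had 3 or more arms whose probe matched a single RefSeq name exactly. Among these matched arms, 37 clusters had at least 1 on all 3 arrays, 27 had none there, and 6 had none detected on any array. Probes without such a match did not enter, so the 27 hold the chromosome 14 cluster of miR-494 and the chromosome 19 cluster of miR-516b-3p. The miR-494 and miR-516b-3p probes were themselves on all 3. The 6 hold the cluster of miR-3180 at chr16:14901508-14911313, in which miR-3180-3p was not among the arms counted. That arm, on all 3 arrays, was counted in other clusters of miR-3180. Clusters without a matched arm on all 3 also included the clusters of miR-302 and miR-367, of miR-143 and miR-145, of miR-200b and miR-429, of miR-200c and miR-141, of miR-192 and miR-194, and the chromosome 1 cluster of miR-181.

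Entries that have been read as pieces of other small RNAs were detected nearly in full, with 15 of 17 (88.2%) on all 3 arrays and a median of 307 units. The share was 13.7% over all miRNA probes and 10.0% over those numbered from 1000 upward, to which the 17 belong. miR-3676-5p was on 1 array and miR-1290 on none. Besides the bright probes named above, miR-3648 reached 378 units and miR-1246, said to match the U2 small nuclear RNA, gave 359, 311 and 119. Over the cultures they split, as 8 of the 15 were highest in culture 1 and 7 in culture 2.

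Transfer RNAs end in the bases CCA. The motif ACCA, searched on the given strand within the last 5 bases of the mature sequence, was found in 9 of the 1686 matched members (0.534%). Among the 230 matched members on all 3 arrays it was found in 4, which were miR-4454, miR-1260b, miR-1260a and miR-23b-3p, and the first 3 of these were among the 20 brightest probes. The match is a description of these letters only.

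Where a hairpin had an arm on all 3 arrays, its other arm was mostly not on all 3, as was true of miRNA probes in general. Both arms were measured for 529 hairpins, and in 130 of them at least 1 arm was on all 3 arrays. In 65 of the 130 the other arm was on no array, and the detected arm was the 5p arm in 43 of these and the 3p arm in 22. Both arms were on all 3 arrays in 16 hairpins, with the 5p arm brighter in 10 and the 3p arm in 6. Over all miRNA probes, 13.7% were on all 3 arrays and 62.5% on none. The other arms were thus on all 3 about as often as probes in general.

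Among hairpins with both arms on all 3 arrays, miR-223 and miR-20a had the widest gaps, which did not differ beyond their spread. In miR-223 the 3p arm, which is the functional one in myeloid cells, reached 1676 units and the 5p arm 20.4, a log2 difference (5p minus 3p) of -6.36 ± 0.74 (SD, n = 3). In miR-20a the 5p arm at 1774 stood over the 3p arm at 21.9 by 6.34 ± 0.30. In miR-17 the values were 2053 and 47.7, a difference of 5.43 ± 0.39. The gap was smaller in miR-425 (186 and 17.0, 3.45 ± 0.24) and miR-361 (212 and 21.0, 3.34 ± 0.10). Each of these 5 gaps was many times its SD over the cultures, but since arms are read by different probes, the size of a gap also holds the difference between probes.

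The 3 cultures ranked the 277 probes alike. Across probes, which are not independent replicates and share array, dye and scaling, Pearson's r of log2 signal was 0.960 between cultures 2 and 1, 0.955 between 3 and 1 and 0.976 between 3 and 2. The median SD over the cultures was 0.40 on the log2 scale, a factor of 1.32, and 202 of the 277 probes (72.9%) stayed within a 2-fold range. Culture 2 was highest for 167 probes, culture 1 for 90 and culture 3 for 20. Culture 3 was lowest for 160.

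Only 3 probes spanned more than 4-fold. miR-454-3p, of the family of miR-130 and miR-301, gave 13.4, 47.1 and 9.62 units in cultures 1, 2 and 3. For miR-224-5p the values were 34.8, 89.2 and 19.4, and for miR-3663-3p they were 35.5, 53.9 and 11.5. All 3 were highest in culture 2 and lowest in culture 3, and miR-454-3p in culture 3 lay at the lowest signals given there. Also among the 8 most variable were miR-10b-5p, miR-132-3p, miR-5001-5p, miR-3180-3p and miR-4730. Besides miR-9-5p, the 5 steadiest were miR-4632-5p, miR-6088, miR-4507 and miR-1914-3p.

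The difference of culture 1 from both other cultures moved with base composition. Over the 230 matched probes on all 3 arrays, the log2 difference of culture 2 minus culture 1 correlated with the G and C share of the mature sequence at r = -0.58, and that of culture 3 minus culture 1 at r = -0.54. Between cultures 3 and 2 r was 0.04. The first 2 differences share the array of culture 1, which also had the highest background.

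In bins of G and C, culture 2 minus culture 1 had a median of 0.97 for the 28 probes with at most 40%, 0.68 for the next 68, 0.33 for 38, 0.02 for 37 and -0.13 for the 59 above 70%. For culture 3 minus culture 1 the medians were 0.35, 0.16, -0.17, -0.35 and -0.65. Culture 3 minus culture 2 was flat, between -0.54 and -0.45. Within the 136 probes numbered below 1000, r was -0.52, -0.45 and 0.12 for the 3 differences, and within the 94 numbered higher it was -0.17, -0.12 and 0.04.

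Families differed in how far culture 2 stood from culture 1. The median log2 difference was 1.44 for the miR-26 list, 1.39 for miR-29, 0.99 for miR-15/16, 0.96 for the mast cell and blood list, of which 10 of 11 were highest in culture 2, and 0.88 for let-7. It was 0.10 for miR-320 and -0.07 for the entries read as pieces of other small RNAs, beside 0.28 over all 277 probes. At the ends of the scale, miR-340-5p with 27.3% G and C gave 18.1, 52.8 and 28.9 units in cultures 1, 2 and 3, and miR-4634 with 94.7% gave 32.9, 48.0 and 25.1. Both were highest in culture 2, so miR-4634 went against the median of its bin. The part of base composition, background and culture in these differences was not tested.

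**Figure D5:**
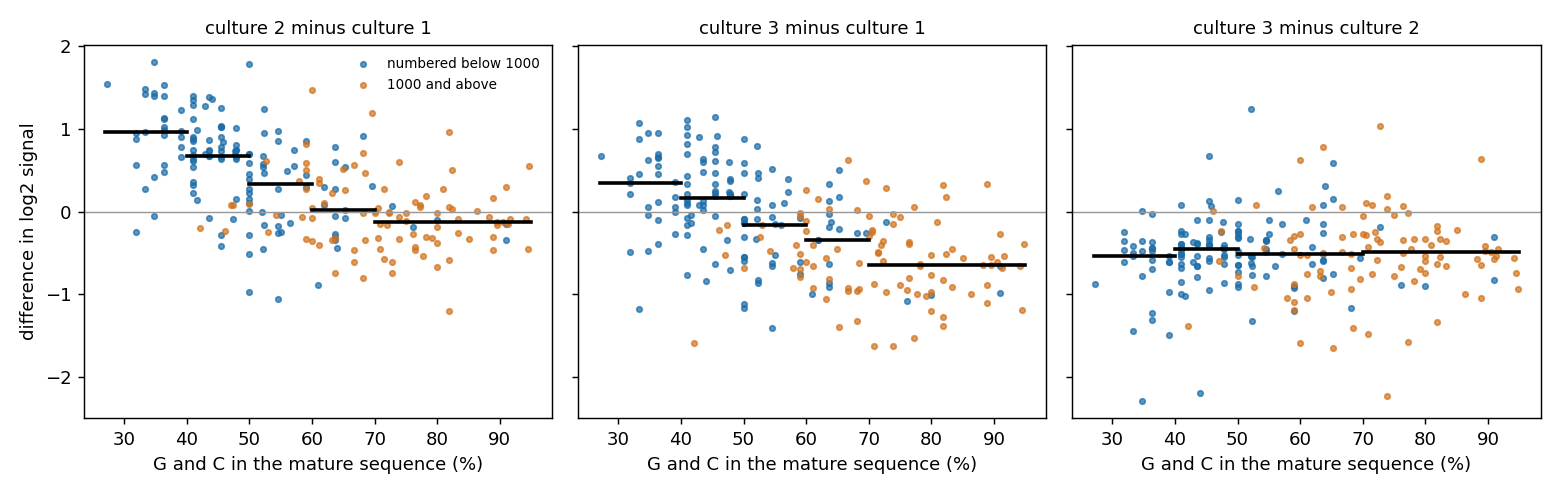
Difference in log2 normalized signal between each pair of cultures (vertical axis) against the G and C share of the mature sequence (horizontal axis, %) for the 230 matched probes detected on all 3 arrays; blue points are miRNAs numbered below 1000, orange points those numbered higher, and black lines are medians per bin. Medians fall from 0.97 to -0.13 and from 0.35 to -0.65 in the 2 panels with culture 1, and stay between -0.54 and -0.45 in the third.

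At the lower end of detection, the 5 weakest probes on all 3 arrays were miR-1207-5p and miR-3916 at 11.2 units, miR-29b-1-5p at 11.7, and miR-486-3p and miR-658 at 12.7. At the other side of the line, the brightest probes on 2 arrays were miR-451a, miR-5088, miR-3150a-3p, miR-192-5p and miR-29c-5p, with signals of 29.4 to 52.4 units. On the arrays where they were given, these signals lay near or above 30.4, the lower quartile of the geometric means of probes on all 3. They leave out the array on which the probe was under the limit. Probes on 2 arrays and on all 3 therefore cannot be ranked by brightness in this way.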

How the data were processed

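RNA of 3 HMC-1 cell samples was read on 1-colour arrays. Per the file headers, the authors deposited for each spot 3 intensity values, which are raw, background-subtracted, and scaled by a global normalization. The deposited columns, set against each other, gave the subtracted background, the limit of detection and the scale factor quoted in the report. The authors also deposited a table of log2 values for the series, whose columns for these samples correlated with log2 raw intensity at 0.995 to 0.998 and were used as an alternative; 6 other columns of it were not used. The sources used here do not name the scanner, its software or a genome build. Blank, spike, negative control and S-Probe spots are no members.

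From the normalized intensity, log2 means, SDs (n = 3), counts and correlations were computed with Python 3.11.15 and pandas 2.3.3, and figures drawn with matplotlib 3.10.9. The code was tested on simulated data. No test between groups was made, and the number of arrays limits the precision. The series' design text calls the 3 samples biological replicates, 1 culture each, so the SD holds both culture and array differences. Sequences and positions are those of RefSeq, GRCh38.p14.

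The members and the 31 lists were chosen with earlier results of these data known, and lists support nothing beyond their counts. Named were the 20 brightest probes, up to 4 of each list with its missing members where these were 5 or fewer, the 8 most and 5 least variable, the 5 weakest, the 5 widest arm differences and the 5 brightest on 2 arrays. The markers of mast cells and blood were given in full. Others, among them miR-98-5p, miR-93-5p, miR-106b-5p, miR-424-5p, miR-100-5p, miR-423-5p, miR-3648, miR-1246, miR-340-5p and miR-4634, were chosen after their values were seen.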

Additional observations from a re-analysis of the deposited data

Results flagged for a closer look

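Spots outside the miRNA probes also gave signal. Of 31 control spots named S-Probe, which the files do not define, 14 had a signal above the limit of detection on all 3 cell arrays. The brightest, S-Probe1014, gave 3266, 2411 and 1395 normalized units in cultures 1, 2 and 3, S-Probe1002 gave 1649, 2917 and 2059, and S-Probe1013 gave 1775, 1819.9 and 2009.7. What they bind was not tested.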

How the results depend on the processing

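The count of probes on all 3 arrays (277) was 206 with a limit of blank mean plus 3 SD and 218 where the signal had to be at least 2 times the weakest of the array, and 300 to 320 without 1 culture (on both others). Probes on some arrays fell from 480 to 88 and 102 under the stricter limits, and numbered 305 to 346 without 1 culture, since fewer arrays can differ. List members on all 3 (105 of 275 names) ranged from 94 to 112. Of 155 list counts under these settings, 13 moved by over 1.5 times, all in lists with few members on all 3 or, in the family of miR-130 and miR-301, with dim ones. Without culture 1, the red cell, liver and gut, and epithelial lists had 1 member each on both remaining arrays, the miR-126 arms 2 and the chromosome 14 list 3. Without culture 2 the muscle list had 1 and the endocrine list 2, and without culture 3 the epithelial list had 2. The median SD between cultures (0.40) was 0.59 without scaling and 0.32 when scaled on the median of probes on all 3. It was 0.40 on the spike controls, an alternative chosen after seeing the data, 0.42 in the brighter probes, and 0.33 to 0.36 without 1 culture. The value of 0.0528 in the log2 table of the series cannot be set beside these, since its columns followed log2 raw intensity. On that scale 0 probes differed over 2-fold between any pair of cultures, against 29 to 38 per pair on the normalized scale. The lower SD there is no sign of closer agreement. The correlation of the differences with G and C for cultures 2 and 3 against 1 was -0.54 and -0.51 in the log2 table and -0.74 and -0.68 in the brighter probes. Mean log2 signals of named miRNAs keep their value under the other scalings by construction, and leaving out 1 of 3 cultures cannot move them by 1 SD, so neither bears on their stability. No paired analysis was possible because no groups were compared. Signals near the limit cannot tell absence from weak presence, and each culture had 1 array.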
